A study of Mus musculus with 18 samples.

Results

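Ubd, the gene of the ubiquitin-like modifier FAT10, was among the genes whose transcripts fell most in the livers of GDF15-treated mice, and it is described here together with the immunoproteasome and the MHC class I antigen presentation genes. The 10 genes, out of 16245 in the table, are Ubd, the 3 inducible proteasome subunits Psmb8, Psmb9 and Psmb10, the peptide transporter genes Tap1 and Tap2, the class I light chain B2m, the class I heavy chains H2-K1 and H2-D1, and the class I transactivator Nlrc5. Ubd was chosen by its fall with GDF15, so its values in every comparison are a description without a test. The other 9 genes were named for their function, although with earlier results of these data known. All 18 livers came from male wild-type (WT) C57BL/6 mice (C57BL/6J in the study's methods) placed at 8 weeks of age on a diet high in fat and fructose (NASH diet) at about 29 °C, the thermoneutral range of the mouse. In the GDF15 group, 6 mice received recombinant GDF15, a stress-induced cytokine that lowers food intake, under the skin once daily. The Vehicle group (n = 6) received no GDF15, and the PairFed group (n = 6) had its daily ration set by what the GDF15 group ate, with a lag of a day. The labels list doses of 0.3, 1 and 5 nmol/kg without tying a dose to these livers, and the animals were single-housed and allotted by body weight and composition. The 3 groups therefore share genotype, diet and temperature, and the pair-fed comparison asks which differences remain when food intake is matched.

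FAT10 is attached to other proteins by the enzymes Uba6 and Ube2z, which also handle ubiquitin, and directs them to the proteasome. It is induced by tumour necrosis factor and interferon gamma and is known from inflamed liver. The same cytokines induce the immunoproteasome, in which Psmb8, Psmb9 and Psmb10 take the places of the constitutive catalytic subunits Psmb5, Psmb6 and Psmb7, and the class I pathway, in which peptides cut by the proteasome pass through the Tap1-Tap2 transporter and are shown at the cell surface by a heavy chain bound to B2m. NLRC5 is the transactivator of the class I genes, as CIITA is of the class II genes.

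Of the 10 genes, 7 lie on chromosome 17 (Ubd, Psmb8, Psmb9, Tap1, Tap2, H2-K1 and H2-D1), 2 on chromosome 8 (Psmb10 and Nlrc5) and 1 on chromosome 2 (B2m). On the GRCm38 build Ubd occupies chr17:37193892-37196095 on the plus strand. The RefSeq starts of Tap1 and Psmb9 lie 226 bases apart on opposite strands. The RefSeq promoter table (GRCm38.p6) matched 8 of the 10 genes, and the 250 bases before the start of 3 of them are shown because they hold the motifs linked to the inducing cytokines and to class I control: Ubd at chr17:37193642-37193891 (plus strand), the heavy chain H2-K1 at chr17:34000348-34000597 (minus strand) and the light chain B2m at chr2:122147437-122147686 (plus strand). Sequences run 5′ to 3′ toward the start, and capitals mark every match to 1 of 3 motifs searched on both strands: GAAANNGAA, the core of the interferon-stimulated response element; GGGNNTTCC, a kappa B site of NF-kappa B; and ATTGG, the Y box or reverse CCAAT.
Ubd: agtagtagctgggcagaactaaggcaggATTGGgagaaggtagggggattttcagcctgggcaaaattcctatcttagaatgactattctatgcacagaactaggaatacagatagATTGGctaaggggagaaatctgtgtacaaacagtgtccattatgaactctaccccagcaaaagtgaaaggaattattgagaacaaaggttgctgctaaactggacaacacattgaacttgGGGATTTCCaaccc
H2-K1: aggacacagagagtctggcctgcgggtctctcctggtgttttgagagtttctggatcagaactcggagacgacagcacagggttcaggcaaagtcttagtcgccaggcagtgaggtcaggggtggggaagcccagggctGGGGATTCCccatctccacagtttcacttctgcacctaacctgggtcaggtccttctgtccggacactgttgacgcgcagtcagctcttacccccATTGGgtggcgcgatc
B2m: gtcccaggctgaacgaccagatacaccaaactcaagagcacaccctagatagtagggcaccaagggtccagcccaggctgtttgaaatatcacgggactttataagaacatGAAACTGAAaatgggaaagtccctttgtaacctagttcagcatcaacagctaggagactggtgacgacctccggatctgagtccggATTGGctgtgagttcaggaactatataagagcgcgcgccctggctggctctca
In Ubd the kappa B match lay at -14 to -6 relative to the start, beside a pair of ATTGG matches further upstream. H2-K1 held a kappa B match at -111 to -103 and an ATTGG match, and B2m an interferon element core at -139 to -131 and an ATTGG match. Over the 8 genes, kappa B matches were found in 3 (Ubd, H2-K1 and H2-D1), ATTGG in 6 and GAAANNGAA in 1 (B2m), and no match overlapped another. Among 32536 promoters of the same length, 5.00% held GGGNNTTCC, 33.8% ATTGG and 7.15% GAAANNGAA. These matches describe letters and were not tested as binding sites. The 3 patterns are fixed strings, so forms of these elements with other letters or spacing were not counted in any promoter.

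The libraries held 16508864 to 35301853 counts, with overlapping totals in the 3 groups (18059478 to 23215915 in Vehicle, 16508864 to 25001486 in GDF15 and 17180057 to 35301853 in PairFed). Values below are counts divided by the DESeq2 size factor of the library (normalized counts), and fold changes are log2 ratios with their standard errors from the DESeq2 fit over all genes. Genes were called at an adjusted p (Benjamini-Hochberg, over all genes) below 0.05. Liver identity was clear, since Alb, the albumin gene of hepatocytes, averaged 1231900 normalized counts in Vehicle. Because these are whole livers, fewer cells of a type and less RNA per cell cannot be told apart.

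Ubd transcripts were lowest in the GDF15 livers. In Vehicle livers Ubd ranged from 114 to 449 normalized counts with a median of 274, in PairFed livers from 134 to 267 with a median of 160.5, and in GDF15 livers from 7.23 to 29.5 with a median of 20.8. Every GDF15 liver lay below every Vehicle and every PairFed liver, a pattern that 4.18% of all 12883 genes with a mean of at least 10 showed. The means were 259 ± 121 in Vehicle, 19.9 ± 8.53 in GDF15 and 179 ± 50.3 in PairFed (SD, n = 6 each).

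The fitted log2 differences of Ubd were -3.69 ± 0.32 against Vehicle and -3.15 ± 0.32 against PairFed, or 12.9-fold and 8.88-fold lower. Both comparisons share the GDF15 livers and, as Ubd was selected on this fall, neither is given a p-value. Among 10883 genes with a mean of at least 50, Ubd ranked 4 by size of fall in each comparison, between Gsta1 (-4.16) and Cfd (-3.58) against Vehicle and between Gm3776 (-3.89) and Cidea (-2.96) against PairFed. The deposited counts of Ubd in the GDF15 livers were 6 to 34, above the floor of 3 counts taken as the limit of detection, against 98 to 431 in Vehicle and 140 to 248 in PairFed. The 6 GDF15 livers also fell into a higher and a lower set, since replicates 1 to 3 were at 24.8 to 29.5 and replicates 4 to 6 at 7.23 to 16.9 normalized counts. Fitted apart, the first set gave -3.38 against the Vehicle replicates of the same numbers and the second -4.22, and no batch label accompanied these numbers.

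In PairFed against Vehicle, which shares the Vehicle livers that entered the choice of Ubd and is likewise given as a description, Ubd was at a log2 difference of -0.54 ± 0.29. The ranges overlapped, and no PairFed liver lay below the lowest Vehicle liver. The value moved to -0.31 without Vehicle replicate 2 and to -0.69 without Vehicle replicate 3, and it was -0.29 with the 3 smallest pair-fed libraries and -0.83 with the 3 largest.

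**Figure D1:**
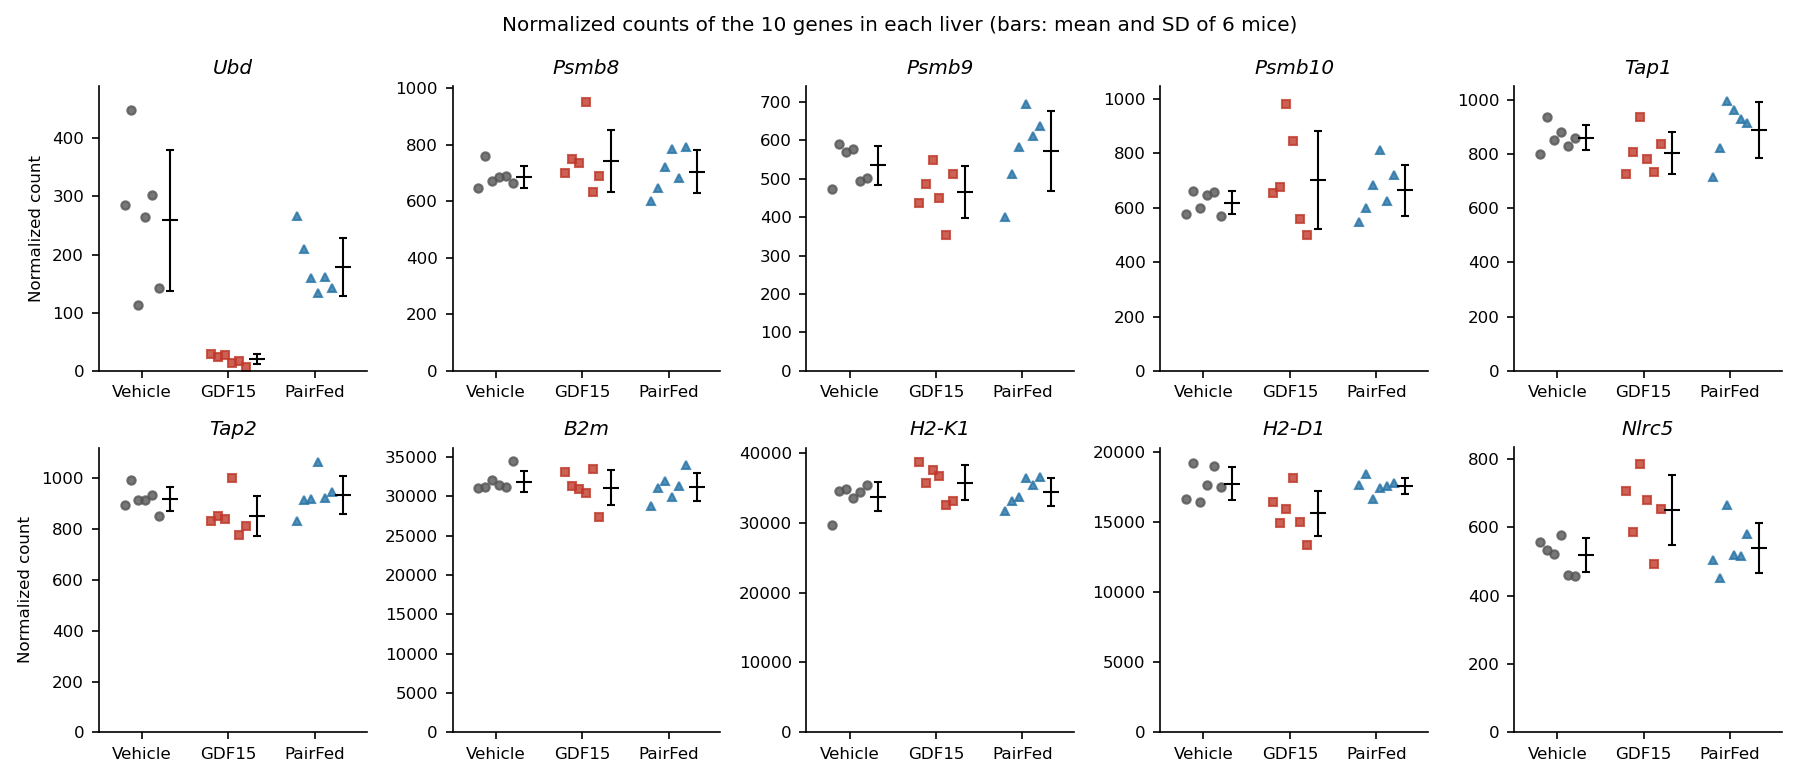
Normalized counts (linear axes from 0) of the 10 genes in each of the 18 livers, with 1 panel per gene, and beside each group its mean and SD (n = 6). The GDF15 livers lie at 7.23 to 29.5 for Ubd, under all others, while the ranges of the groups overlap for each of the other 9 genes.

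None of the other 9 genes followed Ubd in size. Against Vehicle, GDF15 gave 1 called lower (H2-D1) and 1 called higher (Nlrc5), and 7 were not called. The background over 14667 tested genes was 17.5% called lower and 15.8% called higher. Against PairFed, 2 were called lower (Psmb9 and H2-D1) and 1 higher (Nlrc5), beside 13.8% lower and 13.3% higher among 14353 tested genes. The shares among the 9 genes are near these backgrounds and are not a result about the members. The 95% intervals of the 9 genes lay within -26.4% to 45.9% against Vehicle and -31.4% to 40.1% against PairFed. Their median log2 difference was -0.04 against Vehicle and -0.00 against PairFed, and over the 12883 genes with a mean of at least 10 it was 0.02 and 0.01.

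Adding the study's limit of a log2 difference beyond 1 left 0 of the 9 genes in either comparison (edgeR without that limit called 2 and 0), against a background of 5.37% of genes lower by that rule against Vehicle and 2.75% against PairFed. For PairFed against Vehicle, 0 of the 9 genes were called by DESeq2 or edgeR, 0 had an unadjusted p under 0.05 in either, and 0% of all 16242 tested genes were called (DESeq2, 718 with an unadjusted p under 0.05, and 0 called by edgeR).

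**Figure D2:**
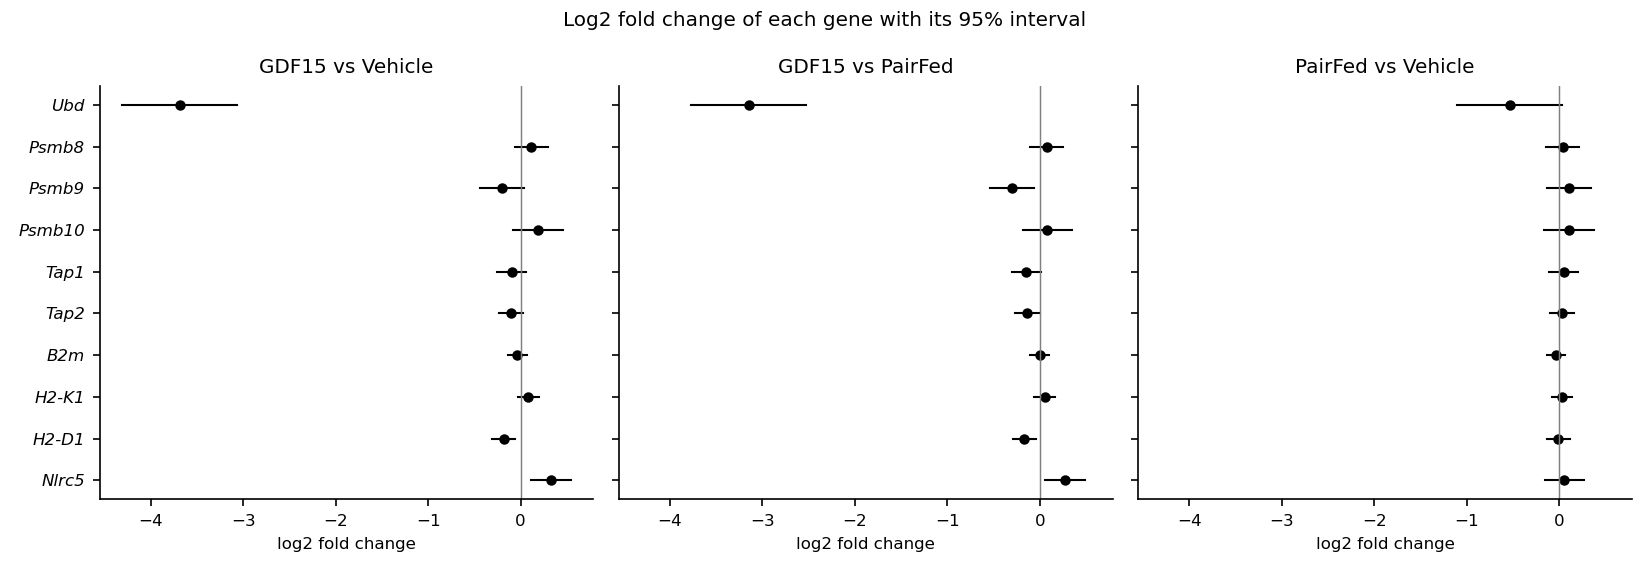
Log2 fold changes (horizontal axis) of the 10 genes in the 3 comparisons, as points with 95% intervals from the DESeq2 fit. Ubd stands at -3.69 and -3.15 in the comparisons with GDF15, and the other 9 genes lie between -0.30 and 0.33.

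The inducible proteasome subunits differed from both controls by at most 0.30 on the log2 scale, and 1 of the 3 was called in 1 comparison. Psmb8, the inducible chymotrypsin-like subunit, had medians of 678 normalized counts in Vehicle (648 to 759), 719 in GDF15 (631 to 952) and 702 in PairFed (600.1 to 792). The ranges overlapped throughout, and the GDF15 difference was 0.12 ± 0.09 on the log2 scale against Vehicle (adjusted p = 0.346) and 0.08 ± 0.09 against PairFed (adjusted p = 0.580). The highest value, 952, came from GDF15 replicate 4, apart from the 5 others.

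Psmb9, the inducible caspase-like-site replacement, was the only one of the 3 inducible subunits below both control groups on average. Its medians were 536 in Vehicle (473 to 592), 468 in GDF15 (355 to 549) and 597 in PairFed (399.7 to 696). The log2 difference was -0.20 ± 0.12 against Vehicle (adjusted p = 0.201) and -0.30 ± 0.12 against PairFed (adjusted p = 0.0477), with 3 of 6 GDF15 livers under all Vehicle livers and 1 of 6 under all PairFed livers. The call against PairFed was at the threshold: edgeR gave an adjusted p of 0.0541, and it was lost without any 1 of 13 livers (GDF15 replicates 1, 2, 4 and 5, PairFed replicates 3 to 6 and Vehicle replicates 2 to 6, adjusted p = 0.0510 to 0.127). Among replicates 1 to 3 the difference from PairFed was -0.02, and among replicates 4 to 6 it was -0.56. Those sets also split the PairFed libraries by depth, since the 3 smallest gave -0.10 and the 3 largest -0.48.

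Psmb10, the inducible trypsin-like-site subunit, spread most among the 3 in GDF15 livers. Its medians were 623 in Vehicle (568 to 662), 665 in GDF15 (501 to 984) and 655 in PairFed (548 to 812). GDF15 livers lay both above and below the controls, and the log2 difference was 0.18 ± 0.14 against Vehicle (adjusted p = 0.309) and 0.08 ± 0.14 against PairFed (adjusted p = 0.706).

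Each inducible subunit displaces 1 constitutive subunit, so the ratio of the pair was compared within each liver, which does not depend on how libraries were scaled. A ratio of counts is not a ratio of molecules, because transcripts differ in length. Of the 3 ratios, that of Psmb9 to Psmb6 was lower with GDF15. It was 0.238 ± 0.0188 in Vehicle, 0.183 ± 0.0238 in GDF15 and 0.264 ± 0.0426 in PairFed (SD, n = 6). The log2 difference was -0.38 against Vehicle (exact two-sided permutation p = 0.00216, the smallest that 6 against 6 allows, adjusted p = 0.0195 over 9 tests), and all 6 GDF15 livers lay below all 6 Vehicle livers. Against PairFed it was -0.52 (exact permutation p = 0.00866, adjusted p = 0.0390), with 3 of 6 GDF15 livers below all PairFed livers, and this second call was lost when any 1 of GDF15 replicates 1 and 4 or PairFed replicates 2 to 6 was left out (adjusted p = 0.0584 to 0.0779).

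Part of that ratio lay in its denominator. Psmb6, the constitutive caspase-like subunit, rose with GDF15 by 0.17 ± 0.05 against Vehicle (adjusted p = 0.00331) and by 0.22 ± 0.05 against PairFed (adjusted p = 0.000155, DESeq2), from 2248 ± 118 to 2534 ± 149 normalized counts, with PairFed at 2172 ± 110. Psmb7, the constitutive trypsin-like subunit, rose by 0.11 ± 0.04 (adjusted p = 0.0474) and 0.16 ± 0.04 (adjusted p = 0.00267). Psmb5, the constitutive chymotrypsin-like subunit, was at -0.10 ± 0.06 (adjusted p = 0.186) and -0.08 ± 0.06 (adjusted p = 0.347).

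The Psmb8 to Psmb5 ratio was 0.307 ± 0.0171 in Vehicle, 0.357 ± 0.0489 in GDF15 and 0.323 ± 0.0473 in PairFed. Its log2 difference of 0.21 with GDF15 against Vehicle had an exact permutation p of 0.0260 and an adjusted p of 0.0779, and it passed without Vehicle replicate 2, GDF15 replicate 5 or GDF15 replicate 6 (adjusted p = 0.0455, 0.0455 and 0.0390). The Psmb10 to Psmb7 ratio was 0.211 ± 0.0218, 0.223 ± 0.0631 and 0.234 ± 0.0337 in the same order, with a log2 difference of 0.04 against Vehicle (exact permutation p = 0.818) and -0.10 against PairFed (exact permutation p = 0.578). For PairFed against Vehicle the ratios of Psmb8, Psmb9 and Psmb10 differed by 0.06, 0.13 and 0.14 (exact permutation p = 0.528, 0.264 and 0.195), and that of Psmb9 passed without PairFed replicate 1 (adjusted p = 0.0390).

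**Figure D3:**
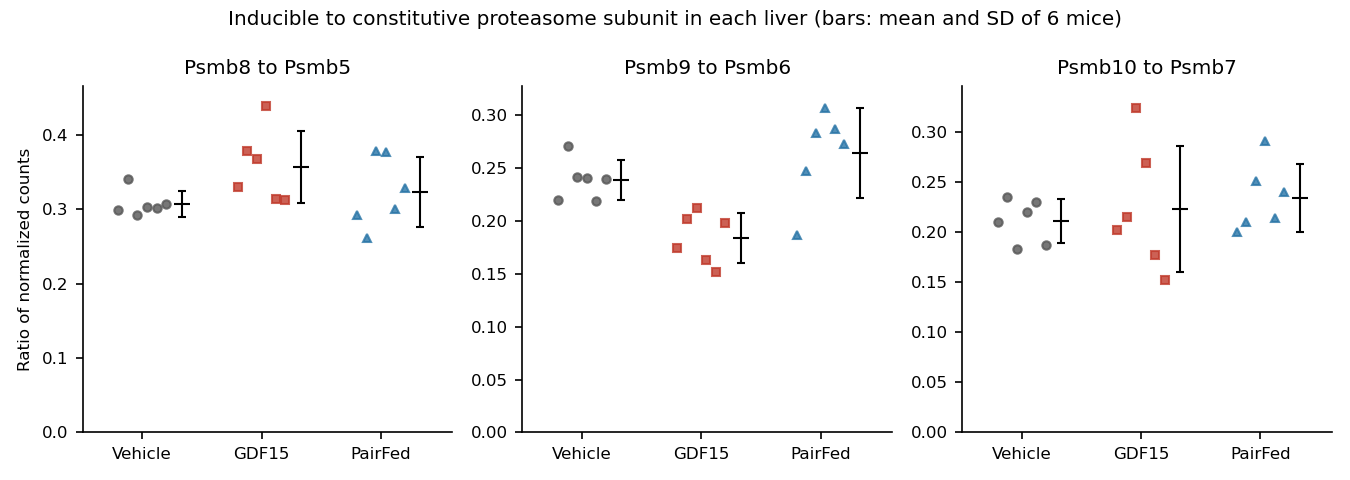
Ratio of the normalized count of each inducible proteasome subunit to that of the constitutive subunit it replaces (linear axes from 0), in each liver, with the mean and SD of 6 mice. For Psmb9 to Psmb6 the GDF15 livers, at 0.152 to 0.212, lie under all Vehicle livers, at 0.219 to 0.270.

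Neither transporter gene was called. Tap1 had medians of 856 in Vehicle (801 to 937), 794 in GDF15 (725 to 937) and 919.9 in PairFed (715 to 996), with log2 differences of -0.10 ± 0.08 against Vehicle (adjusted p = 0.373) and -0.15 ± 0.08 against PairFed (adjusted p = 0.166). Tap2 had medians of 914 (850.3 to 994), 835 (775 to 1000.1) and 922 (832 to 1064), with log2 differences of -0.11 ± 0.07 (adjusted p = 0.211) and -0.13 ± 0.07 (adjusted p = 0.121). The ranges overlapped for both. Without GDF15 replicate 4, the highest GDF15 liver for Tap2, that gene was called lower in both comparisons (adjusted p = 0.0374 and 0.0141), and without GDF15 replicate 3 or PairFed replicate 1 Tap1 was called lower against PairFed (adjusted p between 0.0250 and 0.0465). Tap1 was also called lower against PairFed among replicates 4 to 6 (-0.248, DESeq2 adjusted p = 0.0274), and it was at -0.034 among replicates 1 to 3. With the 3 largest pair-fed libraries it was called lower (-0.215, DESeq2 adjusted p = 0.0460), and with the 3 smallest it was at -0.072.

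The light chain was not called in any comparison. B2m had medians of 31271 normalized counts in Vehicle, 31079 in GDF15 and 31173 in PairFed, and its log2 differences with GDF15 were -0.04 ± 0.05 (adjusted p = 0.641) and -0.00 ± 0.05 (adjusted p = 0.982). The 95% interval against Vehicle ran from -9.02% to 4.69%.

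The heavy chains went apart by small amounts. H2-K1, a classical class I heavy chain, had medians of 34394 in Vehicle (29634 to 35312), 36209 in GDF15 (32506 to 38724) and 34508 in PairFed (31623 to 36588), at 0.08 ± 0.06 against Vehicle (adjusted p = 0.257) and 0.05 ± 0.06 against PairFed (adjusted p = 0.534). H2-D1, the other classical heavy chain here, had medians of 17599 (16444 to 19272), 15482 (13381 to 18162) and 17637 (16688 to 18440). It fell by 0.18 ± 0.06 on the log2 scale with GDF15 against Vehicle (-11.9%, adjusted p = 0.0168), with 4 of 6 GDF15 livers below all Vehicle livers, and by 0.17 ± 0.06 against PairFed (-11.1%, adjusted p = 0.0312), with 5 of 6 below all PairFed livers. The call against Vehicle was lost without GDF15 replicate 6, Vehicle replicate 2 or Vehicle replicate 5 (adjusted p = 0.0519 to 0.0585), and the call against PairFed was lost in edgeR (adjusted p = 0.0570) and without any 1 of GDF15 replicates 2, 5 and 6 or PairFed replicates 1, 2, 5 and 6 (adjusted p = 0.0525 to 0.0891).

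H2-K1 and H2-D1 are close copies of each other, and Salmon divides reads that match both, so each alone is uncertain. Their sum was 51444 ± 2736 in Vehicle, 51350 ± 3769 in GDF15 and 52049 ± 2032 in PairFed, a log2 difference of -0.00 against Vehicle and -0.02 against PairFed. The H2-K1 to H2-D1 ratio was 1.90 ± 0.140 in Vehicle, 2.29 ± 0.165 in GDF15 and 1.96 ± 0.131 in PairFed, so the sums were level while the proportion was higher in GDF15 livers. Neither was tested. A wider sum took 15 H2 genes, namely H2-K1, H2-D1 and genes named H2-Q, H2-T or H2-M. Its log2 difference was -0.07 against Vehicle and -0.08 against PairFed. H2-Q10, a secreted class I molecule of the liver, made up 51.8%, 48.8% and 51.4% of that sum in Vehicle, GDF15 and PairFed.

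Nlrc5, the transactivator, was the 1 gene of the 9 called higher with GDF15. It had medians of 527 in Vehicle (456 to 576), 668 in GDF15 (491 to 784) and 517 in PairFed (450.1 to 664). The log2 difference was 0.33 ± 0.11 against Vehicle (25.7% higher, adjusted p = 0.0113), with 5 of 6 GDF15 livers above all Vehicle livers, and this call held without each of the 18 livers in turn (adjusted p at most 0.0442). Against PairFed it was 0.27 ± 0.11 (adjusted p = 0.0471), with 3 of 6 above all PairFed livers. That call was lost in edgeR (adjusted p = 0.0585) and without any 1 of 12 livers (GDF15 replicates 1, 3, 4 and 6, PairFed replicates 1, 2, 4 and 5 and Vehicle replicates 1 to 4, adjusted p = 0.0508 to 0.135).

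The wider pathway was followed in 9 lists of genes, of which 89 of 94 were measured with a mean of at least 10. Against Vehicle, 14 were called lower and 20 higher, and against PairFed, 14 lower and 15 higher. Over all tested genes, 17.5% were called lower and 15.8% higher against Vehicle, and 13.8% and 13.3% against PairFed. These shares are also the background for the counts of each list below. Of the called pathway genes, 3 in each comparison passed the log2 limit of 1 as well. In PairFed against Vehicle 0 of the 89 were called by DESeq2 or edgeR, with 6 and 5 at an unadjusted p under 0.05.

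Several subunits of the proteasome core were called higher, each by a small amount. Besides Psmb6 and Psmb7, 7 of 11 other subunits of the 20S core were called higher against Vehicle and 8 against PairFed, with 0 lower. Over all genes, 15.8% and 13.3% were called higher in these comparisons. Psmb3 rose by 0.16 ± 0.05 against Vehicle (adjusted p = 0.00372) and 0.25 ± 0.05 against PairFed (adjusted p = 2.5e-06), Psma7 by 0.17 (adjusted p = 0.0127) and 0.15 (adjusted p = 0.0329), and Psmb4 by 0.16 (adjusted p = 0.0224) and 0.18 (adjusted p = 0.00830). Psma5 rose by 0.16 against Vehicle (adjusted p = 0.0306) and was at 0.13 against PairFed (adjusted p = 0.0732). Of 10 activator, inhibitor and assembly genes, 2 were called higher against Vehicle, the assembly chaperone Psmg3 (0.23, adjusted p = 0.0246) and the activator Psme4 (0.13, adjusted p = 0.0329), and neither was called against PairFed. Against PairFed 1 was called, the assembly chaperone Psmg2, at -0.19 (adjusted p = 0.0319).

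Of the 5 enzymes and partners of FAT10, 1 was called against Vehicle and 0 against PairFed. Sqstm1, the autophagy receptor p62, fell by 0.27 ± 0.11 on the log2 scale against Vehicle (adjusted p = 0.0419) and stood at -0.05 ± 0.11 against PairFed (adjusted p = 0.768). Of 9 genes of peptide loading and trimming, only the trimming enzyme Erap1 was called. It was higher by 0.36 ± 0.05 (adjusted p = 5.26e-11) and 0.24 ± 0.05 (adjusted p = 2.01e-05).

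Other class I heavy chain and class I-like genes, a list without H2-K1 and H2-D1, moved both ways. Of 15 measured, 4 were called lower and 4 higher against Vehicle, and 4 lower and 2 higher against PairFed. H2-M2 had the largest drop, from 30.4 ± 14.3 normalized counts in Vehicle to 9.48 ± 6.79 in GDF15 with PairFed at 25.2 ± 10.1, a log2 difference of -1.66 (adjusted p = 0.000393). H2-Q1 fell by 0.93 (adjusted p = 8.46e-06) and H2-Q7 rose by 0.53 (adjusted p = 6.33e-06) and H2-Q6 by 0.36 (adjusted p = 0.000869) against Vehicle. Against PairFed the values were -1.37, -0.70, 0.32 and 0.13, and H2-Q6 was not called (adjusted p = 0.340). The H2-Q genes are near copies as well, and each one alone is uncertain for the reason given for H2-K1.

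Genes of the interferon gamma receptor and its signalling were called lower in 4 of 13 and higher in 1 against Vehicle, and lower in 3 and higher in 1 against PairFed. Ifng itself was barely detected, with group means of 0.477, 1.83 and 0.962 normalized counts in Vehicle, GDF15 and PairFed. Ciita, the class II transactivator, fell by 1.01 ± 0.25 (adjusted p = 0.000525) and 1.13 ± 0.25 (adjusted p = 0.000108), while its class I counterpart Nlrc5 was higher. The receptor chain Ifngr2 fell by 0.64 ± 0.14 (adjusted p = 3.51e-05) and 0.52 ± 0.14 (adjusted p = 0.00139), and the myeloid factor Irf8 fell by 0.52 (adjusted p = 0.00318) and 0.54 (adjusted p = 0.00252). Irf2, a factor that binds interferon elements, rose by 0.40 (adjusted p = 1.22e-06) and 0.49 (adjusted p = 1.46e-09).

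Of 12 interferon gamma response genes outside the class I pathway, 1 was called lower and 3 higher against Vehicle. Against PairFed 2 were called lower and 1 higher. Over all genes the shares were 17.5% lower and 15.8% higher against Vehicle, and 13.8% and 13.3% against PairFed. The counts are near those shares and are not a result about the list. The chemokine gene Cxcl10 fell by 0.87 ± 0.20 (adjusted p = 0.000154) and 0.93 ± 0.20 (adjusted p = 5.34e-05). The interferon-inducible GTPases Igtp, Iigp1 and Irgm2 rose against Vehicle by 0.51, 0.40 and 0.34 (adjusted p = 0.000480, 0.000551 and 0.0217), and of them Iigp1 was also called against PairFed (0.36, adjusted p = 0.00229).

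The list of TNF and NF-kappa B held 11 measured genes, of which 4 were called lower and 0 higher in each GDF15 comparison. Relb, a subunit of the noncanonical NF-kappa B pathway, fell by 1.27 ± 0.24 (adjusted p = 3.96e-06) and 1.09 ± 0.24 (adjusted p = 0.000137). The feedback inhibitor Tnfaip3 fell by 0.88 ± 0.16 (adjusted p = 1.34e-06) and 0.84 ± 0.16 (adjusted p = 4.55e-06), the precursor gene Nfkb2 by 0.73 ± 0.12 (adjusted p = 3.42e-08) and 0.49 ± 0.12 (adjusted p = 0.000486), and the adhesion molecule gene Icam1 by 0.73 ± 0.18 (adjusted p = 0.000413) and 0.46 ± 0.18 (adjusted p = 0.0388). The list's median was -0.05 against Vehicle and -0.01 against PairFed, and 7 genes were not called.

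**Figure D4:**
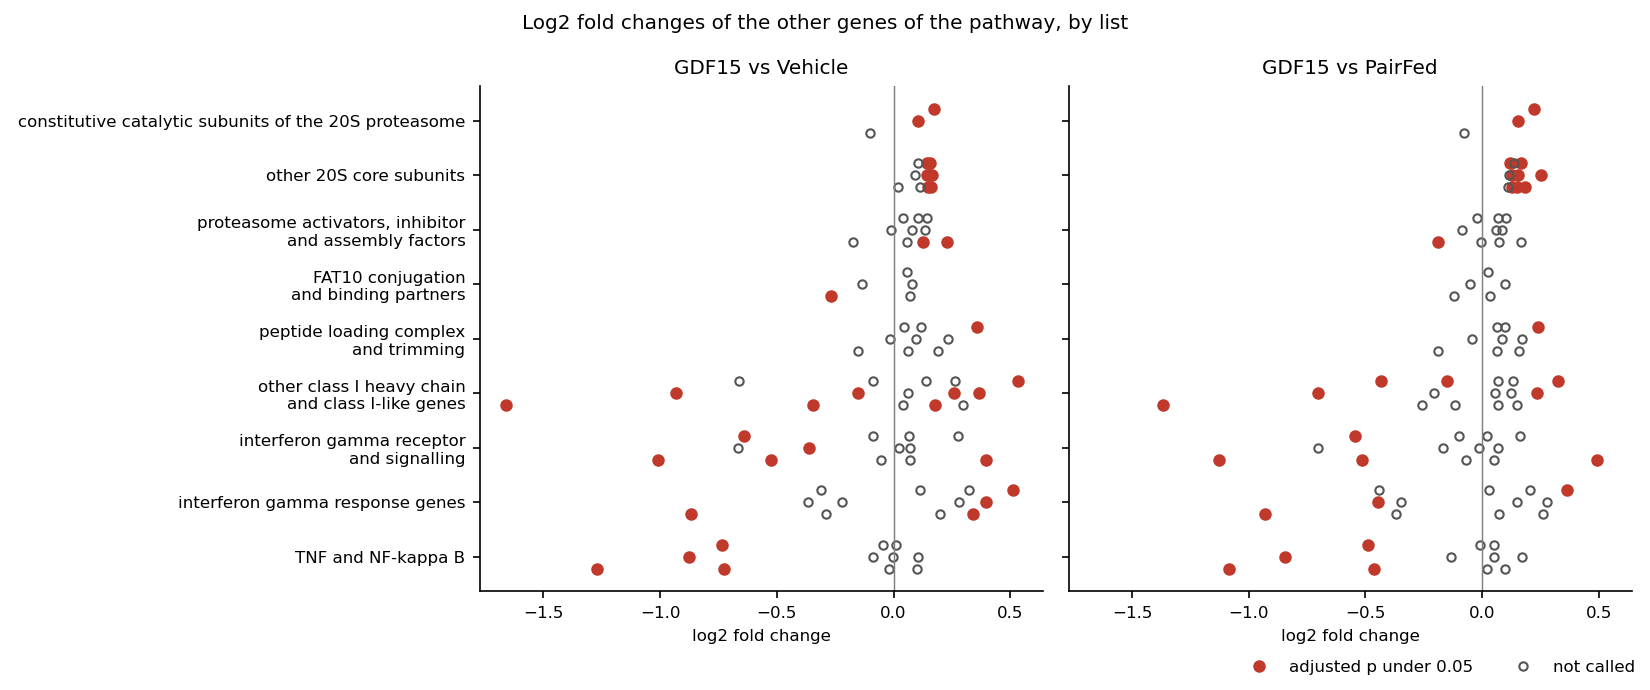
Log2 fold changes (horizontal axis) of the measured pathway genes in 9 lists (rows), with GDF15 set against Vehicle (left) and PairFed (right), and with filled points called at an adjusted p under 0.05 and open points not called. The 20S core genes that were called sit to the right of 0 and the TNF and NF-kappa B genes that were called to the left.

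Some markers of liver cell types were called with GDF15 as well, and their part in these results was not tested. Over all tested genes, 17.5% were called lower and 15.8% higher against Vehicle, and 13.8% and 13.3% against PairFed. These shares are the background for the marker counts in this paragraph and the next. Of 8 macrophage and monocyte markers 7 were lower against Vehicle and 5 against PairFed, and their summed level was 3271 to 6611 in Vehicle, 2042 to 4224 in GDF15 and 3119 to 5267 in PairFed. Lyz2 was at -1.01 and Csf1r at -0.55, whereas Clec4f, a marker of resident Kupffer cells, was at 0.15 (adjusted p = 0.550). Of 3 measured dendritic markers 2 were lower in each comparison, with sums of 127 to 309, 69.9 to 149 and 168 to 293. Of 4 B cell markers 1 and 3 were lower, with sums of 72.0 to 150.2, 29.5 to 83.1 and 101 to 188.

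T and NK cell markers were at the edge of detection, since 4 of 13 reached a mean of 10 and Gzma and Ncr1 had 0 counts in some livers. Their sum was 77.7 to 196 in Vehicle, 62.9 to 172 in GDF15 and 111 to 172 in PairFed, with 1 called higher against Vehicle (Cd4, 0.97, adjusted p = 0.0268) and 0 lower. All 5 cholangiocyte and all 5 stellate cell markers were lower against Vehicle, and 1 and 4 of them against PairFed. Of 5 sinusoidal endothelium markers 1 was lower and 1 higher against Vehicle, which is near the shares over all genes. Of 6 hepatocyte markers 5 were higher in each comparison, and their sum was 1359500 to 1731000 in Vehicle, 1931100 to 2262700 in GDF15 and 1219500 to 1927500 in PairFed.

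Within groups, the genes that followed Ubd most closely were not members of the class I pathway. Levels were taken as log2 of the normalized count plus 1 with each group's mean removed, so that the fall itself did not count, and 10873 genes with a mean of at least 50 were ranked by Pearson's r with Ubd over 18 livers. The highest were Itgax, which encodes the integrin CD11c of dendritic cells and macrophages (r = 0.92, Spearman's rho 0.89), Laptm5, a lysosomal protein gene of blood cells (0.90, rho 0.85), Sat1, an enzyme of polyamine breakdown (0.90, rho 0.87), the class II chain H2-Eb1 (0.90, rho 0.89) and Elapor1 (0.90, rho 0.91). Without the 2 livers farthest in Ubd the values of r were 0.84, 0.81, 0.84, 0.82 and 0.90. The 95th percentile of r over the ranked genes was 0.62, the points share libraries and depth, and the correlations are a description.

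The other 9 genes had r from -0.24 (Psmb9) to 0.52 (H2-D1) with Ubd within groups, and the latter dropped to 0.17 without the 2 farthest livers. Itgax fell with GDF15 by 1.66 ± 0.27 (adjusted p = 3.23e-08) and 1.44 ± 0.27 (adjusted p = 2.91e-06), from 140 ± 46.4 in Vehicle to 44.0 ± 16.9, with PairFed at 121 ± 36.1. H2-Eb1 averaged 1133, 526 and 1038 normalized counts in Vehicle, GDF15 and PairFed. The order of the GDF15 livers by Ubd was near that by Itgax, with replicate 6 lowest for both. Itgax also differed by replicate set, at 52.2 to 62.0 in GDF15 replicates 1 to 3 and 20.5 to 37.2 in replicates 4 to 6. In PairFed the same sets were at 129 to 178 and 83.3 to 98.3. The r of Ubd with Itgax includes these differences between sets, and their part in it was not tested.

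**Figure D5:**
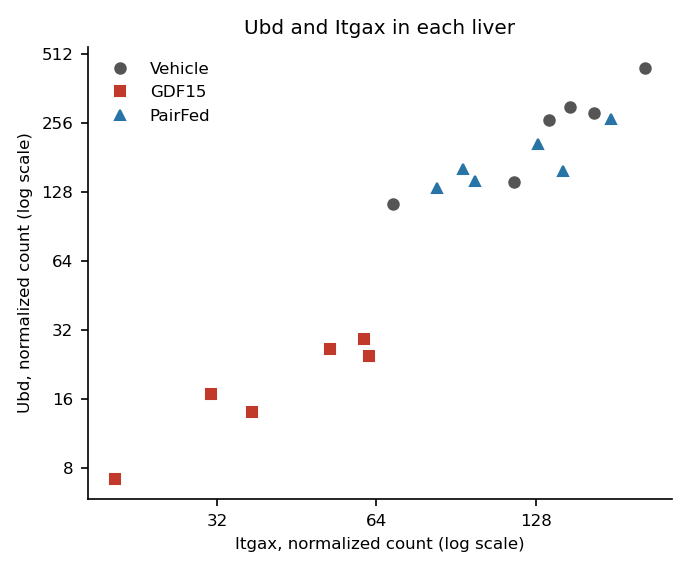
Normalized counts of Ubd against those of Itgax in each of the 18 livers, both on log axes, by group. Ubd and Itgax vary together inside each group, and the 6 GDF15 livers sit at 7.23 to 29.5 for Ubd and 20.5 to 62.0 for Itgax.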

How the data were processed

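Livers of 18 mice (6 Vehicle, 6 GDF15, 6 PairFed, groups and replicate numbers from the sample titles) were analysed. After trimming (Trim Galore) and transcript quantification (Salmon), the authors deposited 1 table of gene counts, which are Salmon estimates rounded to whole numbers. The submitters' notes name mm10, and versions and the transcript set are not given in the sources used here. The table's lowest row total was 5, so rarer genes were not analysed here, and no sample or column was left out. Salmon divides reads between near-identical genes, so single H2 genes are uncertain.

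From the counts, size factors and Wald tests came from DESeq2 1.42.0 in R 4.3.3 (all 18 samples, group only, Benjamini-Hochberg over all genes, no shrinkage). The fit was tested on simulated data. edgeR 4.0.16 (quasi-likelihood) was an alternative. The others were TMM size factors, a filter of 10 counts in 6 samples, no independent filtering, only the 12 samples compared, each sample left out, replicates 1 to 3 or 4 to 6, the 3 smallest or largest pair-fed libraries, the study's fold limit and a replicate block. Ratios used log2 with a pseudocount of 1 and exact two-sided permutation over 924 splits, adjusted over 9 tests. The p-values set each group difference against the variation between these mice and do not cover variation between cohorts. The floor of 3 counts (0.0850 to 0.182 CPM) covers counting error only.

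The members and lists were chosen with earlier results of these data known. All 10 members are named. Of each pathway list up to 4 called genes with the largest change against Vehicle are named, with the constitutive partners always, up to 3 markers per cell type, and the 5 genes most like Ubd. Ifng, Psmg2, Clec4f, Cd4, Gzma, Ncr1 and H2-Q10 were named after their values were seen. A gene of the lists and a motif that was searched are not reported here. Gene positions are from GENCODE vM21 on GRCm38, and the promoter windows and the distance between Tap1 and Psmb9 use RefSeq starts.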

Additional observations from a re-analysis of the deposited data

Results flagged for a closer look

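In the groups of 6, the highest or lowest liver stood apart from the other 5 by Dixon's criterion in 5 of 39 group and measure pairs, where chance gives about 1 in 20, or 1.95. GDF15 replicate 4 was high for Psmb8 (951.7 normalized counts, the others 631 to 749.9) and for Tap2 (1000 normalized counts, the others 775 to 852). Vehicle replicate 6 was high for B2m (34430, the others 31030 to 32010) and Vehicle replicate 1 was low for H2-K1 (29630, the others 33480 to 35310). Vehicle replicate 2 was high for the Psmb8 to Psmb5 ratio (0.3408, the others 0.292 to 0.307). Ubd had no such liver in any group.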

How the results depend on the processing

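The sign of every called member difference was the same under all alternatives. Of 820 member values under alternatives, 57 lost a call and 6 gained one. Most of the 820 were of differences not called in the main fit, which had no call to lose. The losses were in H2-D1, Nlrc5 and Psmb9. H2-D1 was called in 21 of 26 alternatives against Vehicle and 16 of 28 against PairFed. Nlrc5 was called in 24 of 26 and 9 of 28, and Psmb9 in 9 of 28 against PairFed. Against Vehicle the number of the 9 members called was 2 (1 higher) and became 0 (0 higher) with replicates 1 to 3, with replicates 4 to 6 and under the fold limit. Against PairFed it was 3 (1 higher) and became 0 with edgeR, replicates 1 to 3, the 3 smallest pair-fed libraries and the fold limit, and 1 (0 higher) without independent filtering and with only the 12 samples compared. The 1 higher call also went to 0 with replicates 4 to 6 and the 3 largest pair-fed libraries. Pathway calls against Vehicle, 34, became 18 and 20 with replicates 1 to 3 and 4 to 6, where fewer samples were tested, and 3 under the fold limit. Against PairFed, 29 became 10 with the 3 largest pair-fed libraries and 3 under the fold limit. In PairFed against Vehicle 0 became 1, Igtp, with replicates 4 to 6 and with the 3 largest libraries. The cause of these shifts was otherwise not tested.

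With 1 liver left out, members called ranged from 1 to 3 against Vehicle (1 to 1 higher) and from 0 to 3 against PairFed (0 to 1 higher), pathway calls from 26 to 35 and from 22 to 31. The Psmb8 to Psmb5 ratio against Vehicle ranged from 0.15 to 0.24, the Psmb9 to Psmb6 ratio against PairFed from -0.61 to -0.46, and in PairFed against Vehicle from 0.085 to 0.23.

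Expression showed no clear pairing by replicate number (mean correlation of same-numbered deviations -0.05, 0.03 and 0.21, over 0.1 in 2, 3 and 4 of 6 pairs). No sample set had every liver closest to its own number. In PairFed against Vehicle the same-numbered correlations were all positive, from 0.03 to 0.62. Such correlations cannot decide whether mice were matched by number. With the replicate block the member calls were the same, and the Psmb9 to Psmb6 ratios of -0.38 and -0.52 had an exact sign-flip adjusted p of 0.0938, where the smallest p is 0.0312.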
